A study of Mus musculus with 18 samples.

Results

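The 7 genes described are the adult globin genes Hba-a1, Hba-a2, Hbb-bs and Hbb-bt and the erythroid genes Alas2, Slc4a1 and Epb42, taken by name from the 49585 genes of the deposited table. They were followed through 18 laser-captured lung metastases and set against Pecam1, the surface molecule of endothelial cells that stood for the endothelial content of a lesion. The metastases came from AT3 cells, a mouse mammary carcinoma line carrying GFP and mCherry. The cells had been placed in the mammary fat pad and had reached the lungs on their own. All hosts were of 1 immunodeficient genotype, given as strain Rag2-/-IL2rg-/- in one label and as Rag1-/-IL2rg-/- in the growth protocol, and hosts of both groups carried it. Mice of either genotype lack T, B and NK cells of their own. On day 11 the mice received by vein either 60000 mouse NK cells that had been activated in culture or PBS alone. Mice NK1 (3 lesions) and NK2 (4 lesions) received NK cells, and mice KO1 (5 lesions), KO2 (4 lesions) and KO3 (2 lesions) were the PBS controls. A lesion is written as mouse and lesion number, so that KO2-3 is the third lesion of mouse KO2. Each library was made from 2 ng of total RNA cut out of frozen lung sections.

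Adult haemoglobin joins alpha chains, encoded by Hba-a1 and Hba-a2, with beta chains, encoded by Hbb-bs and Hbb-bt, around haem. Alas2 is the erythroid enzyme that starts haem synthesis, Slc4a1 is the band 3 anion exchanger of the red cell membrane, and Epb42 is protein 4.2, which binds band 3 on the inner side of that membrane. Mature mouse red cells have no nucleus, and the youngest circulating ones, the reticulocytes, still hold these messenger RNAs. Blood held in vessels can bring such RNA into a tissue sample. In bulk RNA of this kind, fewer cells of a type and less RNA per cell cannot be told apart.

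Total counts were 2964242 to 11798897 per lesion, and 13432 to 19173 genes had a count. Between 12.1% and 68.7% of counts belonged to mt-Rnr2, a ribosomal RNA of mitochondria, and its share exceeded 40% in 6 lesions, NK1-1, NK1-2, NK1-3, KO1-2, KO1-5 and KO3-2. Lesions of 1 mouse share their host, so the mouse was the replicate for treatment. The lung surfactant gene Sftpc and the proliferation gene Mki67 had counts in 18 of 18 lesions, while Pecam1 had counts in 17. Levels are given as CPM, the count scaled to a common library size, and a gene was called at an adjusted p under 0.05. In GENCODE M21 (GRCm38), Hba-a1 spans chr11:32283511-32284465 and Hba-a2 chr11:32296489-32297298, both on the plus strand. Hbb-bs spans chr7:103826534-103828096 and Hbb-bt chr7:103812524-103813996, both on the minus strand. Alas2 lies at chrX:150547375-150570638 (plus), Slc4a1 at chr11:102348824-102366203 (minus) and Epb42 at chr2:121017891-121037072 (minus).

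The levels of the 7 genes ran in parallel across the lesions (Pearson correlation of 0.56 to 0.99 between members). Whether promoters had a part in this was not tested. For description only, the promoters of 1 alpha gene, both beta genes and Alas2 are shown. Each is the 250 bases before the RefSeq start on GRCm38.p6, read 5' to 3' on the gene's own strand, and capitals mark every match, on either strand, to GATAA (GATA factors), CACCC (Krüppel-like factors), CCAAT or TATAA. The windows are chr11:32283422-32283671 on the plus strand, chr7:103827929-103828178 and chr7:103813924-103814173 on the minus strand, and chrX:150547167-150547416 on the plus strand.
Hba-a1 promoter: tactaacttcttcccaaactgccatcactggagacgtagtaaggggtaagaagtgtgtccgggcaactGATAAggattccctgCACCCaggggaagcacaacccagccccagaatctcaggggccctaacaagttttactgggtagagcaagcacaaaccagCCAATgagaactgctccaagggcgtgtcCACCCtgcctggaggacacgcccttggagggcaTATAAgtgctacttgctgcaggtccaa
Hbb-bs promoter: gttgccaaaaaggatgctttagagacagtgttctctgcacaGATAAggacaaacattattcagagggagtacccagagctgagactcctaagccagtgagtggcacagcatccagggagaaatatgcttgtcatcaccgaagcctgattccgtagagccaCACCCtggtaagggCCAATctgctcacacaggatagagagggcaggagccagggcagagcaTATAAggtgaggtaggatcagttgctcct
Hbb-bt promoter: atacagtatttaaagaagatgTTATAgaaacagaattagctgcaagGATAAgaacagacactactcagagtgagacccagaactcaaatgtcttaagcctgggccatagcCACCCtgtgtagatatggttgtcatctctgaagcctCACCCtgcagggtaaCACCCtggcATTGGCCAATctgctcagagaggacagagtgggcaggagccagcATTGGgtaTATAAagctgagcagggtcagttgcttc
Alas2 promoter: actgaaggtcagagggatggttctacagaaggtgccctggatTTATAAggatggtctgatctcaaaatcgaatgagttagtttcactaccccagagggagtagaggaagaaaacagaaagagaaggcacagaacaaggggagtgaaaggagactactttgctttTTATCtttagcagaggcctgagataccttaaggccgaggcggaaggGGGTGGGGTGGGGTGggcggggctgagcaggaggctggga
Of the 7 members, 6 had a promoter entry, and GATAA was found in 6 of these 6 against 22.6% of 32851 promoters of the same length. The match began 182 bases before the start in Hba-a1, 209 in Hbb-bs, 204 in Hbb-bt and 86 in Alas2. CACCC was found in 5 of the 6, against 52% of all promoters, CCAAT in 4, against 33.8%, and TATAA in 6, against 22.8%. Epb42 held no CACCC and no CCAAT in its window. No match to one of these motifs overlapped a match to another. These matches describe letters and are not evidence of binding. The 300-base windows around the starts of Hba-a1 and Hba-a2 shared an unbroken identical stretch of 297 bases.

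The copies were nearly identical in their coding parts as well, which bears on every value given for a single copy. The coding sequence of 426 bases differed at 1 base between Hba-a1 and Hba-a2 (C381T), and the 441 bases of Hbb-bs and Hbb-bt differed at 1 base (C417T), each an identity of 99.77%. Positions are counted from the first coding base, the first letter is that of Hba-a1 or Hbb-bs, and the capital in each line marks the differing base. All of these stretches lie in exon 3, a coding exon, of their gene in GENCODE M21 (GRCm38). They are chr11:32284313-32284373 and chr11:32297130-32297190 on the plus strand and chr7:103826668-103826722 and chr7:103812659-103812713 on the minus strand.
Hba-a1 coding: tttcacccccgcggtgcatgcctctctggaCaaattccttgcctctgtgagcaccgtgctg
Hba-a2 coding: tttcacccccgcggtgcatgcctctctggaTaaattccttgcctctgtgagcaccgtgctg
Hbb-bs coding: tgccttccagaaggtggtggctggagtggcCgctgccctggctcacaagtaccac
Hbb-bt coding: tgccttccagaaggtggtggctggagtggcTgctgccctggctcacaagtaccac
Within coding sequence the split between copies therefore rests on these bases, and otherwise on the transcript ends. The level of a single copy is uncertain, and the sum of both copies is the firmer value.

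Hbb-bs was the highest of the 7 genes in every lesion, and a single control lesion, KO2-3, held the highest value of all 7. In the control mouse KO2, Hbb-bs stood at 2778, 3004, 7002 and 1541 CPM in lesions 1 to 4. In KO3 it stood at 655 and 3931 CPM. In KO1 it stood at 98.7, 753, 70.0, 204 and 1192 CPM, so that every lesion of KO1 lay below every lesion of KO2. In the mice with NK cells it was 657, 158 and 569 CPM in NK1 and 1006, 1695, 238 and 215 CPM in NK2. The lesions with NK cells thus lay inside the range of the control lesions, whose highest value was 100.04 times their lowest. KO2-3 alone gave 31.14% of all Hbb-bs counts.

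Hbb-bt, the second adult beta gene, ran from 3.28 CPM in NK1-2 to 273 CPM in KO2-3, with a median of 36.7 CPM over the 18 lesions. In NK1-2 and NK1-3 it rested on about 8 and 5 expected counts. Hba-a1 ran from 13.7 CPM in KO1-3 to 879 CPM in KO2-3 (median 128). Its values were 290.02, 316, 879 and 237 CPM in KO2 and 18.6, 133, 13.7, 40.04 and 223 CPM in KO1. Hba-a2 ran from 18.3 CPM in KO1-1 to 736 CPM in KO2-3 (median 106). The alpha genes thus ordered the control mice as the beta genes did, with KO1 lowest.

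Alas2 had overlapping ranges in all 5 mice. It stood at 31.1, 73.3, 135 and 21.9 CPM in KO2, at 26.0 and 120 CPM in KO3, and at 4.47, 44.9, 4.93, 10.6 and 77.6 CPM in KO1. It stood at 16.5, 6.97 and 82.9 CPM in NK1 and at 24.7, 34.3, 12.3 and 13.7 CPM in NK2. Exons of Alas2 share 311 bases with exons of Apex2, a DNA repair gene on the opposite strand. No source used here states how strand was handled, so counts from that stretch are uncertain. Apex2 itself was 0 to 17.3 CPM, with its highest value in KO1-4.

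Slc4a1 stood at 19.8, 32.6, 83.2 and 20.7 CPM in KO2 and at 10.3 and 49.6 CPM in KO3. In KO1 it was 4.66, 9.90, 1.70, 6.33 and 11.1 CPM, below every lesion of KO2. NK2 gave 12.4, 21.3, 4.17 and 6.15 CPM. NK1 was the most scattered, at 2.38, 0.410 and 33.8 CPM, where the lowest of these was a single count and the highest, in NK1-3, was 46 counts.

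Epb42 was near the limit of detection, with 217 counts in all and counts in 12 of 18 lesions. KO2-3 held 103 of these counts, at 9.21 CPM, and the other lesions of KO2 stood at 0.683, 2.55 and 1.99 CPM. The lesions of KO3 stood at 1.45 and 0.477 CPM, and those of NK2 at 0.793, 0.832, 0.144 and 0.403 CPM. It was 0 in the 3 lesions of NK1 and in KO1-1, KO1-2 and KO1-3. A count of 0 (limit 3 counts) allows up to 0.476, 1.23 and 2.20 CPM in the lesions of NK1 and 0.291, 0.928 and 0.231 CPM in those of KO1, for counting error only.

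**Figure D1:**
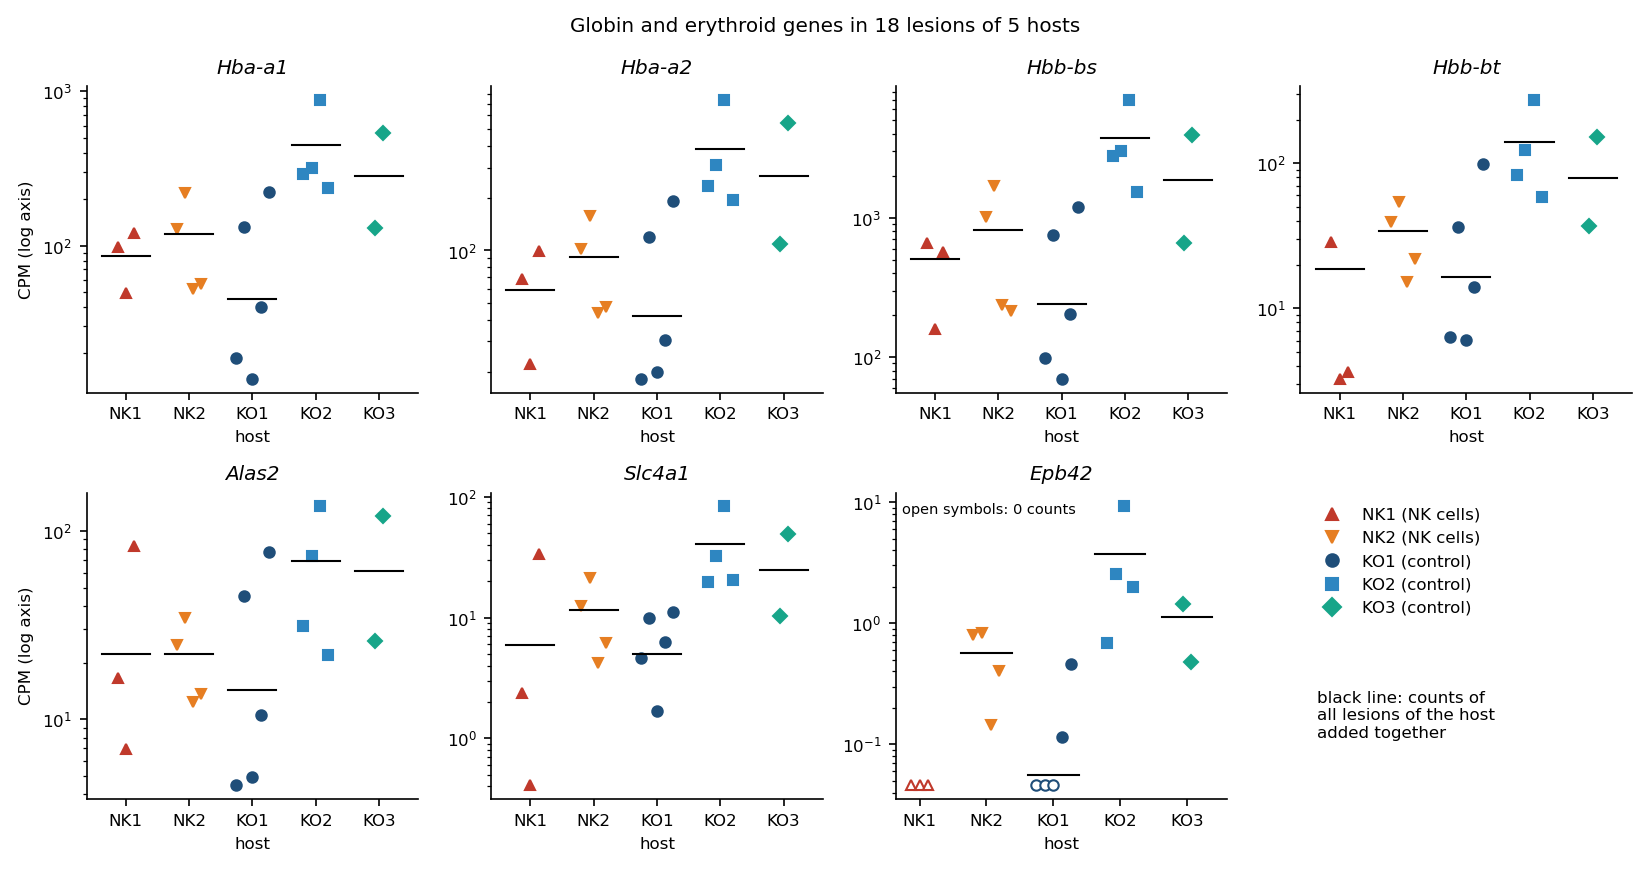
CPM of the 7 genes (log axis) in each lesion, by host, with a black line for the pooled counts of the host. The highest symbol in every panel is KO2-3 (7002 CPM for Hbb-bs), and the lesions of KO1 (70.0 to 1192 CPM for Hbb-bs) overlap those with NK cells (158 to 1695 CPM).

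Per kilobase of the longest coding transcript, Hbb-bs came first in 18 of 18 lesions with a median of 1123 CPM per kilobase. Hba-a2 and Hba-a1 followed with medians of 191 and 184 CPM per kilobase. Hba-a1 was above Hba-a2 in 4 of 18 lesions, and the annotated transcripts of these copies differ in length (699 and 554 bases), so the order of the alpha copies is not firm. Hbb-bt followed with 52.2 CPM per kilobase, then Alas2 with 12.5, Slc4a1 with 2.36 and Epb42 with 0.105 CPM per kilobase. Hbb-bt lay above Alas2 in 17 of 18 lesions, Alas2 above Slc4a1 in 18 and Slc4a1 above Epb42 in 18.

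Together the 4 globin genes took 0.0117% of all counts in NK1-2 and 1.25% in KO2-3. The scaled globin level was lowest in KO1-3, at 110 CPM. Lesions with more globin RNA had a smaller part of it from the alpha genes. Alpha globin was 15.5% of globin counts in KO2-1 (95% Wilson interval 15.1 to 15.9) and 30.7% in KO1-3 (28.3 to 33.1). Across 18 lesions the alpha share and the globin CPM had a Spearman correlation of -0.83, and -0.84 over the 15 lesions outside NK1, a description in which both measures share the same counts. The lesions of NK2 fell into a lower and a higher pair. In the numbering of the samples, NK2-1 and NK2-2 stand before the lesions of KO2 and KO3, and NK2-3 and NK2-4 after them. Whether sample order had a part was not tested. In NK2-1 and NK2-2, with 1275 and 2126 CPM of globin, alpha took 18.01% (17.5 to 18.6) and 17.7% (17.3 to 18.2), while in NK2-3 and NK2-4, with 349.5 and 341 CPM, it took 27.5% (26.3 to 28.8) and 30.5% (29.3 to 31.6).

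The share of Hbb-bt in beta globin had a median of 4.07%. It was highest in NK2-4 at 9.19% (8.35 to 10.1), against 3.10% (2.90 to 3.33) in NK2-2 of the same mouse, and lowest in NK1-3 at 0.640% (0.274 to 1.49). In KO2 it stayed between 2.91% and 3.93%, and in KO1 between 4.62% and 8.004%. The share of Hba-a2 in alpha globin had a median of 45.4% and ran from 31.03% in NK1-2 (24.6 to 38.3, 174 alpha counts) to 59.3% in KO1-3 (54.6 to 63.8). These intervals cover counting error only and take the split between near-identical copies as deposited.

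**Figure D2:**
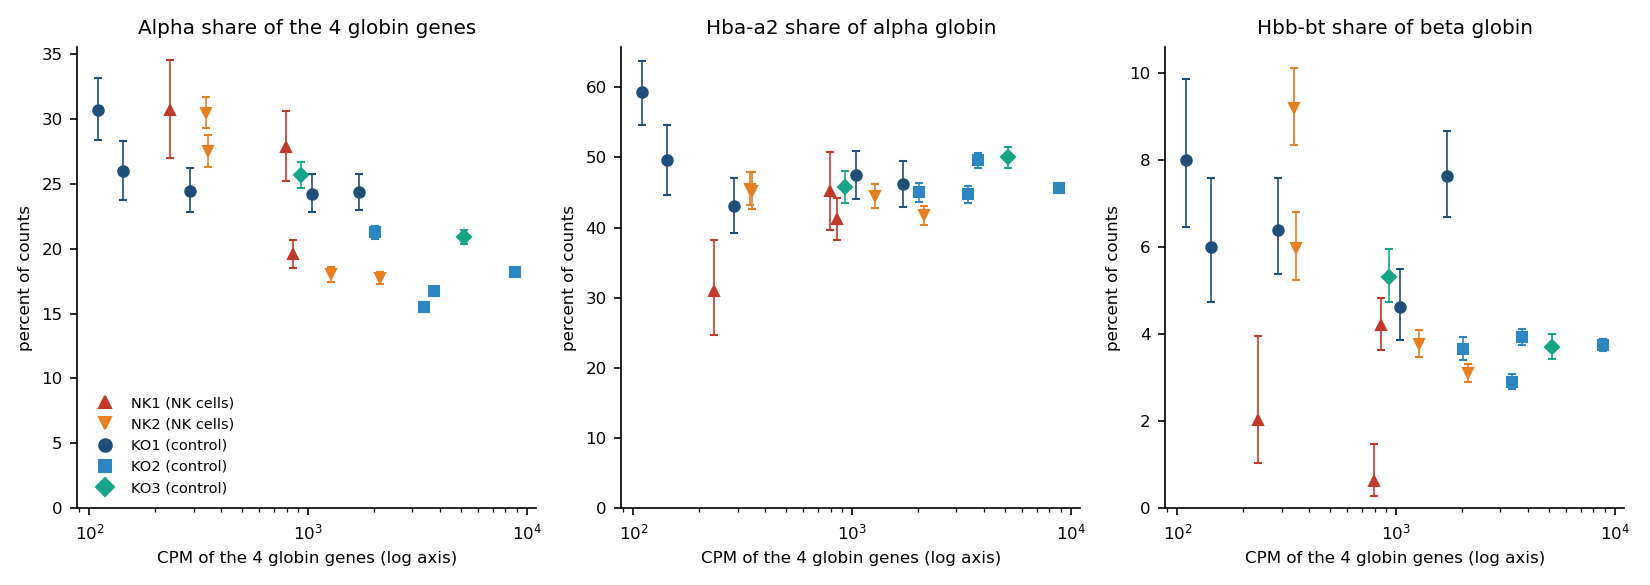
Percent of counts from alpha globin (left), of Hba-a2 within alpha (middle) and of Hbb-bt within beta (right) against the CPM of the 4 globin genes (log axis), with 95% Wilson intervals for each of 18 lesions. The alpha share was 30.7% in KO1-3, at the lower end of globin, and 18.2% in KO2-3, at the upper end.

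The question of the study was how metastases differ between hosts with and without NK cells, and here the comparison of 2 mice with 3 called none of the 7 genes. All 7 estimates were lower with NK cells, from -1.11 to -2.36 on the log2 scale with a median of -1.57, against a median of -0.03 over all genes tested. In the same comparison 9 of 10 neutrophil markers were lower, with a median of -2.67, and 24 of 25 endothelial markers, with a median of -0.81 and Pecam1 at -0.65 ± 0.83. None of these was called, and their part in the result was not tested. The mean of Hbb-bs was 658 ± 216 CPM (SD, n = 2) in treated mice, against 1951 ± 1753 CPM (SD, n = 3) in PBS mice. Its log2 fold change was -1.57 ± 0.96 (SE, edgeR quasi-likelihood adjusted p = 0.99983). By mouse, its pooled CPM was 505 and 811 with NK cells (NK1, NK2) and 242, 3745 and 1865 without (KO1, KO2, KO3). KO1 was therefore the lowest of the 5 mice, and both other controls lay above both mice with NK cells. The call was 0 of 7 members, against 0% of the 16917 genes tested (edgeR). At an unadjusted p under 0.05 there were 426 genes, none of them a member, and DESeq2 called 39 genes and 0 members. All 3 lesions of NK1 were among the 6 above 40% mt-Rnr2. Without those 6 lesions, Hbb-bs gave -0.91. NK2 was then the only mouse with NK cells, and it was assumed to vary as the controls did.

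The other members repeated this order of mice in part. Hba-a1 gave -1.34 ± 0.82, Hba-a2 -1.63 ± 0.82 and Hbb-bt -1.58 ± 0.81. Alas2 was 22.3 and 22.2 CPM in mice NK1 and NK2, and 14.3, 69.0 and 61.1 CPM in mice KO1, KO2 and KO3, at -1.11 ± 0.65. Slc4a1 was 5.90, 11.5, 5.04, 40.8 and 24.9 CPM in the mice so ordered, at -1.43 ± 0.82. Epb42 was 0 CPM in NK1, which allows up to 0.286 CPM, and 0.571, 0.0557, 3.73 and 1.13 CPM in the others, at -2.36 ± 1.82. That estimate moved to -0.80 without mouse KO2. Without NK2 it was -8.42, where the one mouse left with NK cells had 0 counts, so the size is set by the model and is no bound. None of the 7 had both mice with NK cells below all 3 controls, a pattern that 6.86% of the tested genes showed. Without mouse KO2, Hbb-bs gave -0.68, and without KO1 it gave -2.07, so these mice set its size. Hba-a1, at -0.68 without KO2, and Slc4a1, at -0.77, moved alike. Leaving out 1 mouse or 1 lesion in turn, in 23 fits, called no member.

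Lesions of 1 mouse allowed a test of whether the hosts differ beyond the spread within them, which says nothing about treatment. Epb42 was the only member called (adjusted p = 0.0273), 1 of 7 against 6.8% of the 15741 genes tested. Adjusted p for the others was 0.0694 for Hba-a2, 0.0866 for Hbb-bs, 0.0955 for Hbb-bt, 0.0967 for Hba-a1, 0.164 for Slc4a1 and 0.476 for Alas2. Pecam1 itself differed between hosts (adjusted p = 0.0175). Its pooled CPM was 2.28 in NK1 and 21.2 to 26.5 in the other mice. Of the 25 endothelial markers, Pecam1 among them, 12 were called between hosts, against the same 6.8% of genes. The count of members rested on single lesions. It was 0 without KO2-3, 2 without NK1-1, NK1-3 or KO3-1, and 5 without KO1-5.

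Within the controls, KO2 against KO1 gave larger estimates than KO3 against KO1 for 6 of the 7 genes, all but Alas2. All 7 estimates were positive, from 1.23 to 5.45 with a median of 2.34, against -0.06 over all genes. Hbb-bs gave 2.95 ± 0.87 (edgeR adjusted p = 0.145), Slc4a1 2.58 ± 0.84 (0.171), Hba-a1 2.34 ± 0.73 (0.160) and Epb42 5.45 ± 1.30 (0.0644). Alas2 had the smallest estimate, 1.23 ± 0.83 (0.483). None of the 7 passed, against 0.731% of genes called, and 6 of the 7 had an unadjusted p under 0.05, against 16.4% of genes. In 5 of the 7, all except Hbb-bt and Alas2, every lesion of KO2 lay above every lesion of KO1, which held for 5.53% of genes. Epb42 passed without NK1-1 (adjusted p = 0.0446) or NK1-3 (0.0390). KO3 against KO1 called 0 of 7 members, against 1.23% of genes, with Hbb-bs at 2.31 ± 0.97 (0.267). KO3 against KO2 called 0 of 7, against 1.1% of genes, with Hbb-bs at -0.64 ± 1.10 (0.777). For KO2 against KO1, Pecam1 gave -0.05 ± 0.46 (0.966), while 18 of 25 endothelial markers were positive, with a median of 0.26. Of the 25, 2 were called, both higher, against 0.731% of genes: Calcrl (2.89 ± 0.46, edgeR adjusted p = 0.00773) and Ptprb (1.94 ± 0.41, 0.0298).

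The calls differed with and without the libraries rich in mt-Rnr2. The highest globin values within KO1 lay in KO1-2 and KO1-5, in which mt-Rnr2 took 58.3% and 68.7% of counts, against 22.8% to 28.9% in its other 3 lesions. In KO2 mt-Rnr2 took 12.1% to 24.4%. Without the 6 lesions above 40%, a choice made after the values were seen, 12 lesions remained, 3 of KO1, 4 of KO2, 1 of KO3 and 4 of NK2. That choice took out KO1-2 and KO1-5, the lesions of KO1 with the most globin, and kept every lesion of KO2. By itself it raises KO2 over KO1 for the globin genes, so the calls in this fit are no separate support for a difference. All 7 members were then called higher in KO2 than in KO1, against 3.21% of 17108 genes called in either direction and 1.99% called as higher. Hbb-bs gave 4.84 ± 0.94 (edgeR adjusted p = 0.0232), Hba-a2 4.01 ± 0.61 (0.00564), Slc4a1 3.22 ± 0.70 (0.0258) and Alas2 3.29 ± 0.65 (0.0179). The test across hosts also called 7 of 7, against 4.35% of genes. Pecam1 did not pass in that fit (-0.16 ± 0.30, adjusted p = 0.804), for which the other endothelial markers are not given. The part of the mt-Rnr2 share in these results was not tested. Within hosts that share and the mean z-score of the 7 genes had a Pearson correlation of 0.50 over 18 lesions.

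**Figure D3:**
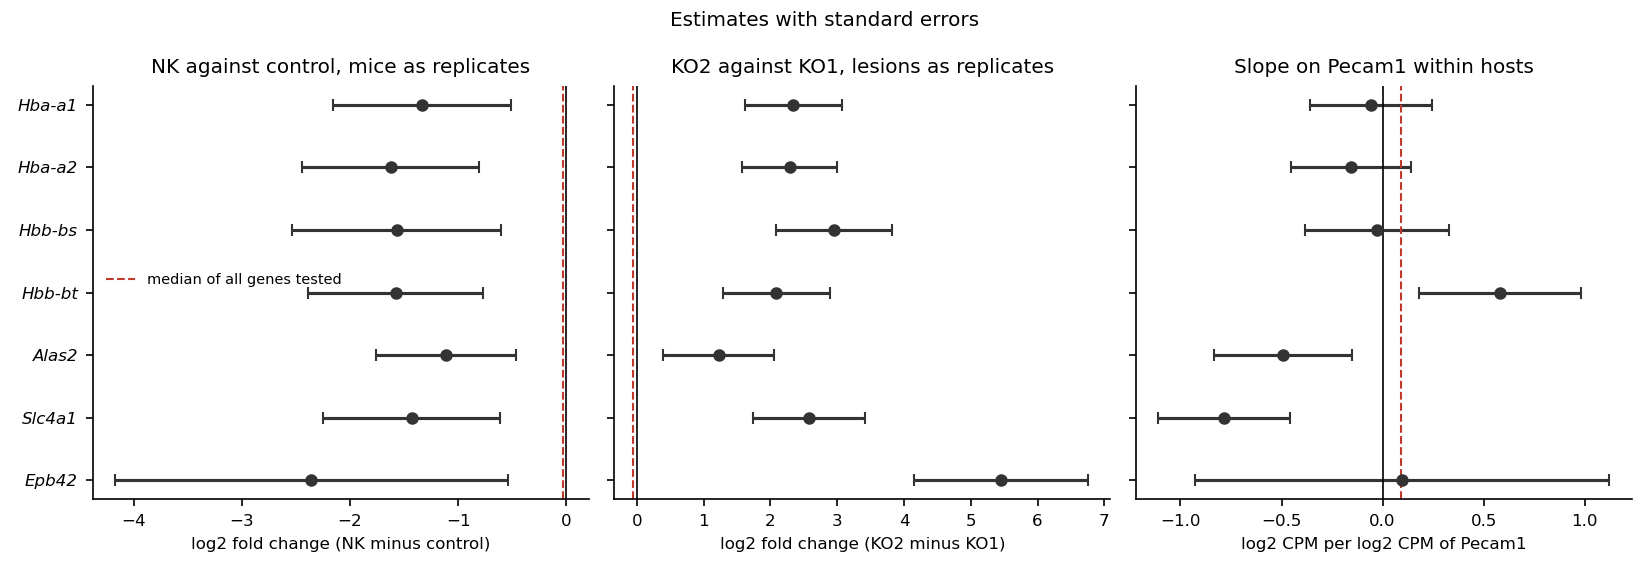
Estimates with standard errors for the 7 genes: log2 fold change of NK against control over 5 mice (left), of KO2 against KO1 over lesions (middle) and slope on Pecam1 within hosts (right), with a dashed line at the median of all genes tested. All 7 lie below 0 on the left (-1.11 to -2.36), above 0 in the middle (1.23 to 5.45) and on both sides of 0 on the right (-0.78 to 0.58).

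The slope of each gene on Pecam1 among lesions of 1 host addressed whether erythroid RNA went with this 1 marker of endothelial content. None of the 7 slopes was called, against 2.45% of the 15740 genes tested, and their median was -0.06 against 0.09 over all genes (units of log2 CPM per log2 CPM of Pecam1). The slope was -0.03 ± 0.36 for Hbb-bs (edgeR adjusted p = 0.972), -0.06 ± 0.30 for Hba-a1 (0.935), -0.16 ± 0.30 for Hba-a2 (0.797) and 0.58 ± 0.40 for Hbb-bt (0.425). It was -0.49 ± 0.34 for Alas2 (0.430), 0.10 ± 1.02 for Epb42 (0.969) and -0.78 ± 0.33 for Slc4a1 (0.181, unadjusted p = 0.0271). These intervals are wide, and a slope that misses the threshold does not show that there is no relation. Among the 24 other endothelial markers, 18 had a positive slope on Pecam1, with a median of 0.45. Of the 24, 3 were called as positive and 1, Kdr, as negative (-1.15 ± 0.23, edgeR adjusted p = 0.0211). No gene had a called slope without mouse NK1 or without lesion NK1-3, so these calls rest on that mouse. Pecam1 was thus at most a partial measure of endothelial content within hosts, and the slopes of the 7 genes concern Pecam1 only. With the other 24 markers in place of Pecam1, all 7 slopes were negative, from -0.99 for Hbb-bs to -2.04 for Alas2, and none was called.

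Lesion NK1-3 weighed heavily. It had 0 Pecam1 counts, which allows up to 2.20 CPM, in the smallest library of all (2964242 counts, 52.0% mt-Rnr2). Its endothelial markers together still summed to 383 CPM. That lay above KO1-2 (378 CPM), KO1-3 (355 CPM), KO1-5 (327 CPM) and the other lesions of NK1, and below all remaining lesions. The mean log2 CPM of its endothelial markers other than Pecam1 was 0.55, the lowest of all lesions. NK1-3 had 569 CPM of Hbb-bs, 82.9 CPM of Alas2 and 33.8 CPM of Slc4a1, the highest Alas2 and Slc4a1 of any lesion with NK cells. Without it the slope of Slc4a1 was 0.44, that of Alas2 0.38 and that of Hbb-bs 0.32. Without the whole of NK1 the slopes were 0.53 for Slc4a1, 0.46 for Alas2 and 0.44 for Hbb-bs, and none was called. The converse was seen in KO1-1, which had the highest Pecam1 of all lesions, 37.6 CPM, with 98.7 CPM of Hbb-bs and the lowest Alas2, 4.47 CPM.

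Over all 18 lesions, Pearson correlations with Pecam1 in log2 CPM ran from -0.09 for Alas2 to 0.52 for Hbb-bt, with 0.15 for Hbb-bs. They are descriptions over lesions that share hosts, libraries and depth. Without NK1 (15 lesions) they ran from 0.02 for Epb42 to 0.17 for Slc4a1. The mean z-score of the 7 genes correlated with Pecam1 at 0.21, at 0.35 without NK1-3 and NK1-1, the lesions farthest from the median of Pecam1, and at -0.20 after centring within hosts. With the mean of the other 24 endothelial markers it correlated at 0.38 (Spearman 0.55) and at -0.32 after centring, opposite signs across and within hosts. The 25 endothelial markers summed to 96.1 to 383 CPM in NK1 and 327 to 856 CPM in the other mice, and the vascular cadherin gene Cdh5 had counts in 18 of 18 lesions.

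**Figure D4:**
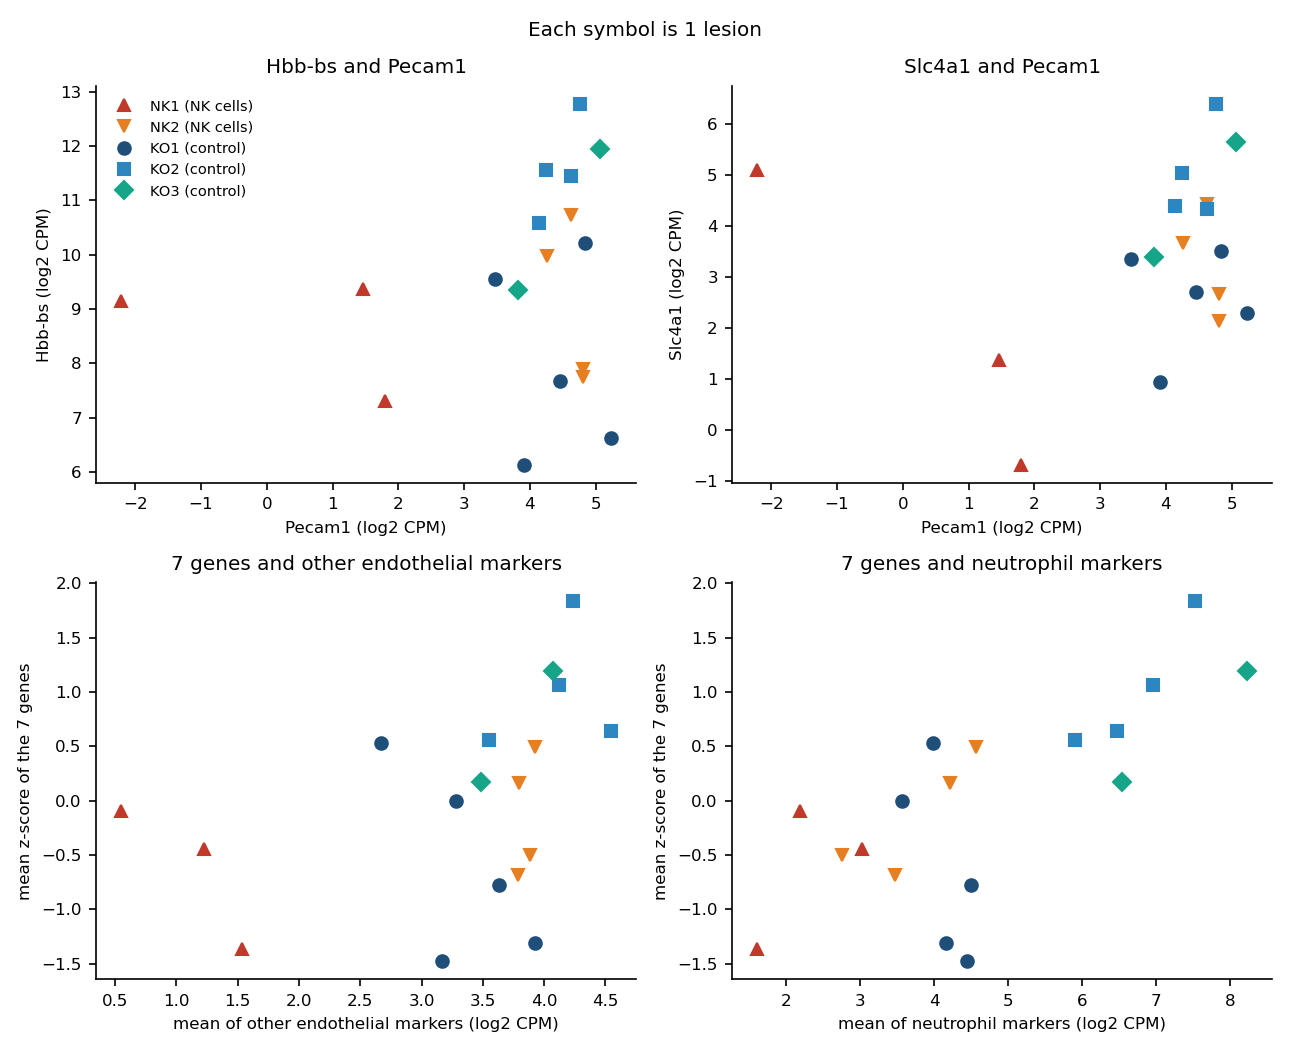
Upper panels, Hbb-bs and Slc4a1 against Pecam1 in log2 CPM; lower panels, mean z-score of the 7 genes against the mean log2 CPM of the other endothelial markers and of the neutrophil markers, 1 symbol per lesion. Lesion NK1-3 lies far left in the upper panels at 0 Pecam1 counts with 569 CPM of Hbb-bs, and lesions of KO2 and KO3 lie at the right of the neutrophil panel, with KO3-1 at a middle z-score of 0.17.

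The 7 genes were closer to each other than to Pecam1. Over 18 lesions the Pearson correlation between 2 members in log2 CPM ran from 0.56, for Alas2 with Epb42, to 0.99, for Hba-a1 with Hbb-bs. After centring within hosts it ran from 0.35, for Slc4a1 with Epb42, to 0.97, for Hba-a1 with Hbb-bs. Alas2 and Slc4a1 correlated at 0.85 with each other in both ways. The values between copies also hold the split of reads that both copies could have given.

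Among 13462 genes with a mean of at least 10 counts per lesion, several had a pattern close to the mean z-score of the 7 (Pearson correlation over 18 lesions, a description). They included Oas3 (0.86), an interferon-induced antiviral enzyme, Cryab (0.84), a small heat shock protein, Ube2l6 (0.83), a conjugating enzyme for ISG15, and Rmc1 (0.83). Map3k2 (0.82), Rasgef1a (0.82), Coro1a (0.82), an actin-binding protein of white blood cells, 1700047M11Rik (0.81) and Gpcpd1 (0.81) followed. Ube2l6 was on the list of late reticulocyte genes. Within hosts these 9 correlations ran from 0.58 for Coro1a to 0.89 for Gpcpd1.

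The wider erythroid programme was followed in 6 lists. Of 7 embryonic and theta globin genes, 6 had no count in any lesion and Hbq1b had 20, of which 13 lay in NK2-2. Of 14 genes of globin chaperoning and haem synthesis, 13 were tested. For NK against control 0 were called, and between hosts 2 of 13 were, against 6.8% of all genes tested: Cpox (adjusted p = 0.0249) and the mitochondrial carrier gene Slc25a38 (0.0425). Haem is made in most cell types, and Cpox is an enzyme of its synthesis. The list's median for KO2 against KO1 was 0.30, with 8 of 13 positive and 0 called. The lowest estimate there was -1.90 ± 0.96 for Alas1 (edgeR adjusted p = 0.338). The highest was 0.95 ± 0.35 (0.194) for Fech, the last enzyme of the pathway. Both genes were chosen after their values were seen.

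Of 18 genes of the red cell membrane and skeleton, 13 were tested over mice and 12 over lesions, and 0 were called in any comparison. The most abundant were the water channel Aqp1, which endothelium also expresses, Epb41, or protein 4.1, and Tmod1. For KO2 against KO1 they gave 0.88 ± 0.45, 0.00 ± 0.47 and -0.31 ± 0.76. Sptb, a spectrin gene, and Ank1, the ankyrin gene, were sparse, with 77 and 125 counts in all lesions together, and were chosen after their values were seen.

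Gata1 and Klf1, the main erythroid transcription factors, were chosen after their values were seen: Gata1 had 24 counts in 5 lesions and Klf1 had 0 in all 18. Of the 11 genes of that list 7 were tested over lesions and 1 was called between hosts, against 6.8% of all genes, Nfe2 (adjusted p = 0.00601), a factor of both red cells and megakaryocytes. Nfe2 gave 2.57 ± 0.62 for KO2 against KO1 (adjusted p = 0.0596). Of 16 late reticulocyte genes 13 were tested. Of these 1 was called between hosts, Trim10 (adjusted p = 0.0319), against the same 6.8% of all genes. The ubiquitin ligase gene Mkrn1 had a negative slope on Pecam1 (-0.53 ± 0.10, adjusted p = 0.0211), the only gene of the erythroid lists with a called slope. No gene, Mkrn1 included, had a called slope without mouse NK1 or without lesion NK1-3. For KO2 against KO1, 11 of the 13 were positive with a median of 0.60, and 0 were called. Of 10 genes that handle haem and haemoglobin in macrophages and plasma, 9 were tested over lesions and 1 was called between hosts, against 6.8% of all genes, the haemoglobin scavenger receptor Cd163 (adjusted p = 0.0478), which rested on 54 counts in 9 lesions.

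Markers of other blood cells moved with the 7 genes. Of 10 neutrophil markers 9 were called between hosts, against 6.8% of all genes tested. For KO2 against KO1, 5 of the 10 were called higher, against 0.731% of genes called in either direction. Among these were S100a9 (3.11 ± 0.40, edgeR adjusted p = 0.00179) and S100a8 (2.79 ± 0.43, 0.00639). The summed level of the 10 neutrophil markers was 1133 to 2894 CPM in the lesions of KO2 and 1661 and 6174 CPM in KO3. It was 265 to 455 CPM in KO1, 135 to 871 CPM in NK1 and 240 to 450 CPM in NK2. The 871 CPM belonged to NK1-1, where the single marker Ltf gave 4732 of the 5494 counts. The mean log2 CPM of the markers in NK1-1 was 3.03, below the lesions of KO1 (3.57 to 4.51). The mean of these markers and the mean z-score of the 7 genes had a Pearson correlation of 0.73 over 18 lesions, 0.60 without KO3-2 and KO2-3, and 0.45 within hosts. The 10 platelet and megakaryocyte markers summed to 19.8 to 46.5 CPM in KO2, 17.9 and 18.9 CPM in KO3, 6.81 to 22.3 CPM in KO1, 3.67 to 13.01 CPM in NK1 and 12.7 to 19.8 CPM in NK2. The mean of the 6 of these markers tested over lesions correlated with the z-score at 0.61 over 18 lesions and at 0.28 within hosts. The part of these blood cells in the erythroid levels was not tested.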

How the data were processed

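RNA-seq libraries of 18 lesions were used. The submitters' processing notes name mm10, RSEM 1.2.28, DESeq2, STAR and bcl2fastq 2.17. The deposited gene table holds expected counts as RSEM estimates them, with no scaling by the authors, and these were rounded. A second deposited table holds log2 values that the authors normalized by a method that no source used here states, and it served as an alternative only. Other columns of sample values numbered 0. Of 49585 identifiers, 49326 matched a symbol.

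The 7 genes and all lists were chosen with earlier results of these data known. Counts were tested in R 4.3.3 with edgeR 4.0.16 (TMM scaling, robust quasi-likelihood F test, filterByExpr with a minimum count of 10 and total of 15, Benjamini-Hochberg adjustment over all genes tested). Treatment was fitted over 5 mice with lesion counts summed. Hosts, and the slope on log2 CPM of Pecam1 (prior count 2) with host as a factor, were fitted over lesions. Each SE is the estimate divided by the square root of F. All fits were tested on simulated data, with lesions drawn independently and no host effect beyond the changes put in. How the fits behave when lesions share a host was not tested. Common dispersion gave a coefficient of variation of 64.9% over mice and 67.8% over lesions. With 2 mice against 3, a one-sided exact permutation test cannot go below 0.1. Lesions of a mouse differed beyond sampling noise (lowest chi-square per degree of freedom 21.97). Sequences come from RefSeq (GRCm38.p6) and GENCODE M21. The named genes are the members, Pecam1, mt-Rnr2, the 10 genes most like the members' mean z-score, and from each list those called (up to 4 by p) or else the 3 with the highest mean count; a few genes are not reported here. Alternatives with DESeq2 1.42.0, limma 3.58.1, other scaling and filters, and left-out mice or lesions are given in the closing section.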

Additional observations from a re-analysis of the deposited data

Results flagged for a closer look

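Of 40 groups of 4 to 7 lesions examined, 2 held a lesion that stood far from the others, as chance does in about 1 in 20 groups. The share of Hba-a2 in alpha globin was 31.03% in NK1-2, the lowest of the 7 lesions with NK cells, against 41.2% in the nearest, and it rested on 174 alpha counts. The alpha share of globin was 30.7% in KO1-3, the highest of the 5 lesions of KO1, against 26.0% in the nearest. KO1-3 also had the lowest globin level of the 18 lesions, 110 CPM.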

How the results depend on the processing

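No member was called for NK against control or for the slope on Pecam1 under any setting run, and the signs of all 7 estimates for NK against control and for KO2 against KO1 held in all of them. The number of genes called for NK against control, 0 as reported, was 224 with no filter on low counts, 39 with DESeq2, 7 with the host number as a replicate block and 0 to 4 with a mouse or lesion left out. With that block, Hbb-bs gave -0.57 and Epb42 -2.77. Deviations of same-numbered hosts correlated at 0.10 and 0.29, and with fewer than 3 pairs the numbers only name hosts. Between hosts, 1070 genes and 1 member were called, 397 and 0 in control hosts only, and 584 to 2381 and 0 to 5 with a lesion left out. Without the 6 lesions rich in mt-Rnr2, chosen after seeing the data, 7 members were called, and 549 genes and 7 members for KO2 against KO1 (115 and 0 as reported, 25 to 244 and 0 to 1 with a lesion left out). That setting left no lesion of NK1.

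Slopes on Pecam1 were called for 386 genes as reported, 1667 with no host term, 695 with the mt-Rnr2 share added, 0 to 804 with a mouse or lesion left out, and 0 with the other endothelial markers, in the normalized table or without the 6 lesions. Some members' slopes turned sign. With no host term they were 0.22 for Hba-a1, 0.25 for Hba-a2, 0.32 for Hbb-bs and 0.036 for Slc4a1. With the other endothelial markers in place of Pecam1 all 7 slopes were negative and none was called. Those of Hbb-bt (-1.02) and Epb42 (-1.55) had turned sign. The others were -1.07 for Hba-a1, -1.25 for Hba-a2, -0.99 for Hbb-bs, -2.04 for Alas2 and -1.13 for Slc4a1. Epb42 gave -0.055 with the mt-Rnr2 share, and in the normalized table -0.11, with 0.082 for Hba-a1 and 0.055 for Hbb-bs. Without the 6 lesions Hba-a1 gave 0.56, Hba-a2 0.22, Hbb-bs 0.45, Alas2 0.26 and Slc4a1 0.93. With a mouse or lesion left out the slopes ran from -0.25 to 0.46 for Hba-a1, -0.35 to 0.43 for Hba-a2, -0.24 to 0.44 for Hbb-bs, -0.72 to 0.46 for Alas2, -0.92 to 0.53 for Slc4a1 and -0.50 to 1.01 for Epb42. The cause was not tested. With 2 mice against 3 and lesions that share hosts, depth limits Epb42 most, with 217 counts.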
